A study of Homo sapiens with 24 samples.

Results

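MUTZ-5 and MHH-CALL4 are established human lines from acute lymphoblastic leukemia of B cell precursors, a cancer of immature B cells, and each line was grown from the cells of 1 patient. The comparison described here sets the 3 arrays of MUTZ-5 against the 3 arrays of MHH-CALL4 from cells that had received only DMSO, the solvent, for 8 hours. These are 6 of the 12 arrays of the series. The other 6 hold the same lines after 8 hours in 500 nM JQ1, an inhibitor that keeps BET bromodomain proteins off chromatin, again with 3 arrays per line. All cells grew in RPMI medium with fetal bovine serum, and no culture without DMSO was measured. Both lines are known for a rearranged CRLF2 gene and a mutated JAK2 gene, so the comparison lies within 1 genetic subtype of the disease. CRLF2 itself was not analysed here. With 1 line on each side, a property of a line and a property of the leukemia it came from cannot be told apart.

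Precursor B cells mature in ordered steps. Progenitors that carry CD34 switch on the transcription factors EBF1 and PAX5, rearrange their antibody genes with the RAG enzymes and DNTT, and then test the product in a pre-B cell receptor made of VPREB1, CD79A and CD79B, which signals through the kinases LYN, SYK and BTK. Growth signals reach the same cells through cytokine receptors, JAK kinases and STAT5. Dividing leukemia cells also need serine, nucleotides and cholesterol, which they make or take up.

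RNA was measured on Affymetrix exon arrays. The values are RMA log2 values, in which 1 unit is a 2-fold difference in array signal, and a gene is the array's transcript cluster summarised over its core probes. A summary of the same scans over more, less certain probes (the extended summary) served as a check. The test was also repeated on the genes whose mean reaches the median level, which leaves out low members of a list. Across the 14232 genes used, the median gene lay at 8.52, and the 12 array medians lay between 8.46 and 8.57. No detection calls or background levels were given, so a gene is called low in both lines where both means lie under 6.99, the lower quartile of all genes, and a fold against a line near the bottom of the scale may understate the true ratio. The SD of 3 arrays was 0.13 for the median gene in MUTZ-5 and 0.087 in MHH-CALL4. A gene was called different at an adjusted p under 0.05 in a limma fit of all 12 arrays. Whether a line's 3 samples were separate cultures is not stated in the labels, so the p-values rest on the spread among these 3, which may be technical. In bulk RNA, fewer cells with a transcript and less of it per cell cannot be told apart.

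The lines differed widely. At this threshold 3330 of 14232 genes were called (23.4%), 1695 higher in MUTZ-5 (11.9%) and 1635 lower (11.5%). Most differences were small: 1416 of the higher and 1346 of the lower genes differed by less than 2-fold. At least 2-fold differences were found for 568 genes (3.99%), 279 higher in MUTZ-5 (1.96%) and 289 lower (2.03%). Of these, 33 higher and 30 lower genes differed at least 8-fold. For 5145 genes (36.2%) the 3 values of one line lay wholly outside those of the other. Among the 7478 genes whose higher line reached the median level, 14.2% were called higher in MUTZ-5 and 17.8% lower. Both shares lie above those of all genes, and the part of signal level in the shares of the gene lists was not tested. The lists were chosen with earlier results of these data known, so a share above that of all genes carries no test.

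The precursor B cell identity of both lines was checked first. Of 14 marker genes 12 were measured, and 10 of these stood above the 80th percentile of all genes in both lines. DNTT, the enzyme that adds bases at antibody gene joints, averaged 13.23 ± 0.056 (SD, n = 3) in MUTZ-5 and 13.15 ± 0.10 in MHH-CALL4. EBF1, which starts the B cell program, averaged 13.14 ± 0.10 and 13.14 ± 0.0098. Neither was called (adjusted p = 0.47 and 0.96, limma), and the arrays of the lines overlapped for both. RAG2 was likewise high and not called, at 12.02 ± 0.12 and 12.20 ± 0.12. RAG1, its partner in antibody gene recombination, was the one marker under the median gene in both lines, at 7.46 ± 0.082 and 7.58 ± 0.11. PAX5, which fixes B cell fate, averaged 11.95 and 12.17, a log2 difference of -0.23 (adjusted p = 0.029), and its call was lost in 5 of the alternative analyses, among them those without MUTZ-5 array 1 or 2 or MHH-CALL4 array 2 or 3.

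CD34, the antigen of blood stem and progenitor cells, separated the lines. CD34 read 10.52, 10.41 and 10.93 on the MUTZ-5 arrays and 6.77, 6.89 and 7.14 on the MHH-CALL4 arrays. Every MUTZ-5 value was high and every MHH-CALL4 value was low, with no overlap. The difference was 12.9-fold (log2 difference 3.69, SE 0.13, adjusted p = 8.6e-11). FLT3, a receptor tyrosine kinase of early progenitors, was also higher in MUTZ-5, at 11.48 ± 0.12 against 10.61 ± 0.085, and so was CD200 (0.57). PROM1, another stem cell antigen, went the other way: it averaged 5.26 in MUTZ-5 and 7.06 in MHH-CALL4, below the median gene in both. Of 16 stem and progenitor genes measured, 4 were called higher in MUTZ-5, 2 lower and 10 neither (37.5% called, against 23.4% of all genes), and 6 were low in both lines.

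**Figure D1:**
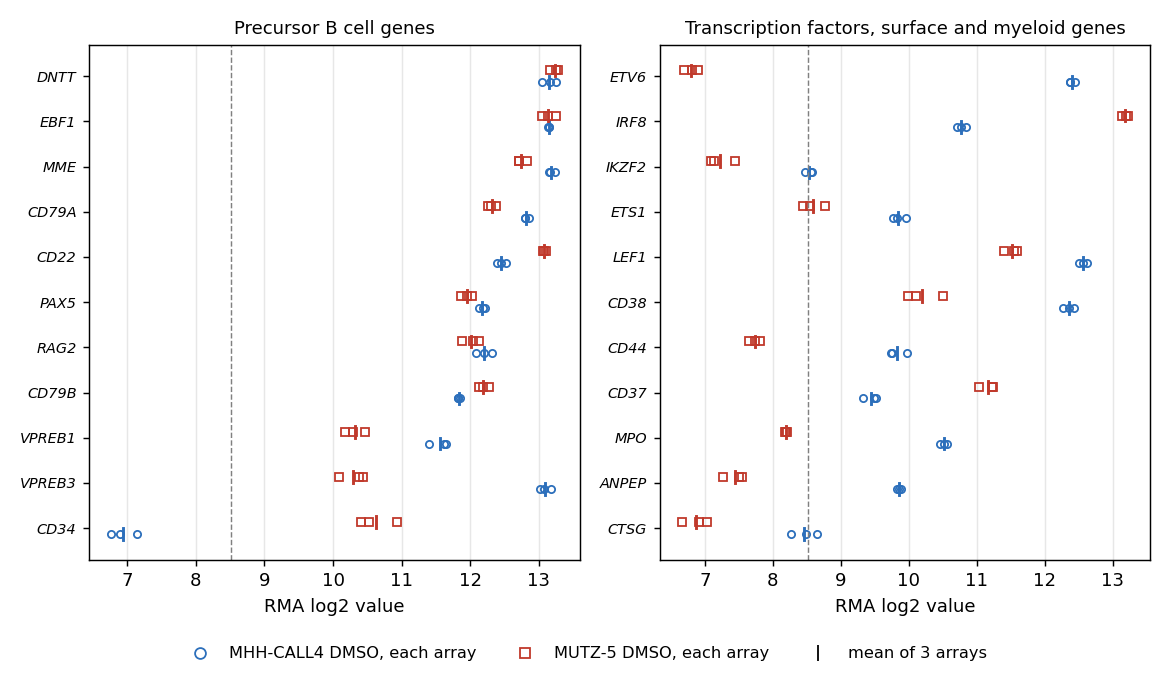
RMA log2 values of lineage genes (horizontal axis) on each of the 3 MUTZ-5 DMSO arrays (red squares) and the 3 MHH-CALL4 DMSO arrays (blue circles), with short vertical bars at the line means and a dashed line at the median gene, 8.52. DNTT and EBF1 lie together in both lines, whereas CD34, IRF8 and CD37 lie to the right in MUTZ-5 and ETV6, VPREB3 and MPO to the right in MHH-CALL4.

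Transcription factors of the B lineage were called in both directions, 10 of 32 higher in MUTZ-5 and 9 lower, 59.4% against 23.4% of all genes. The largest difference was ETV6, an ETS family repressor that is often rearranged or deleted in childhood leukemia. ETV6 read 6.69, 6.82 and 6.90 on the MUTZ-5 arrays and 12.37, 12.44 and 12.37 on the MHH-CALL4 arrays. All 3 MUTZ-5 values lay below the lower quartile of genes and all 3 MHH-CALL4 values near the top of the scale, a 48.2-fold difference (log2 difference -5.59, SE 0.069, adjusted p = 6.5e-15). IRF8, an interferon regulatory factor of B cells and dendritic cells, was the reverse, at 13.23, 13.19 and 13.14 in MUTZ-5 and 10.71, 10.84 and 10.76 in MHH-CALL4. It was high in both lines and 5.33-fold higher in MUTZ-5 without overlap. BCL6, a repressor of germinal centre and pre-B cells, was 1.93-fold higher in MUTZ-5, and BACH2, which delays antibody secretion, differed by 0.99 on the log2 scale.

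Lower in MUTZ-5 were IKZF2, an Ikaros family factor, at 7.22 ± 0.19 against 8.53 ± 0.055, and ETS1, at 8.59 ± 0.16 against 9.85 ± 0.10. LEF1, a partner of beta-catenin that marks some B cell leukemias, was 2.07-fold lower and still high in both lines (11.51 and 12.56). ZEB2 also differed by -0.88. IKZF1, or Ikaros, which is frequently deleted in this disease, differed little, with a log2 difference of -0.32 (adjusted p = 0.0098). With extended summaries the IKZF1 difference was -0.14 and the call was lost (adjusted p = 0.3). The ETV6 and IRF8 differences kept their direction and call in all 14 alternatives run.

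LYN, SYK and 5 other genes of the pre-B cell receptor list were lower in MUTZ-5. Of 15 measured genes 7 were called lower, 3 higher and 5 neither (66.7% called, against 23.4% of all genes), with a median log2 difference of -0.22 against 0.028 for all genes. LYN, the Src family kinase that phosphorylates the receptor, read 6.17, 6.49 and 6.71 in MUTZ-5 and 11.35, 11.12 and 11.16 in MHH-CALL4. The MUTZ-5 values were below the lower quartile of genes, and the difference was 26.9-fold (log2 difference -4.75, SE 0.13, adjusted p = 6.8e-12). SYK, the kinase next in line, was 4.04-fold lower, at 8.75, 8.59 and 8.98 against 10.77, 10.86 and 10.73. VPREB3, which binds newly made light chains, read 10.38, 10.08 and 10.43 against 13.02, 13.18 and 13.08. All 3 genes were apart in every array. VPREB1, part of the surrogate light chain, was 2.37-fold lower, CD72, an inhibitory coreceptor, 2.02-fold, and CD79A 1.42-fold, whereas CD79B was 1.28-fold higher. CD22, another inhibitory coreceptor, was 1.54-fold higher in MUTZ-5.

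Downstream of these kinases the direction was mixed. PLCG2, the phospholipase that turns the receptor signal into calcium release, read 11.89, 11.84 and 11.98 in MUTZ-5 and 10.67, 10.77 and 10.66 in MHH-CALL4. Its relative PLCG1 read 10.49, 10.35 and 10.54 and 8.98, 9.11 and 8.95. Both phospholipases were higher in MUTZ-5 without overlap, 2.30-fold and 2.72-fold. SCIMP, an adaptor that LYN phosphorylates in antigen-presenting cells, was lower in MUTZ-5, at 8.34 ± 0.18 against 10.60 ± 0.11. Of 25 measured Src, Syk and Tec kinases and adaptors 7 were called higher and 6 lower (52% called, against 23.4% of all genes). With extended summaries 4 were called higher.

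Of 23 measured surface antigens of B cells 13 were called higher in MUTZ-5 and 6 lower (82.6%, against 23.4% of all genes), with a median of 0.36. Among genes averaging at least the median level 7 were called higher. CD37, a tetraspanin of mature B cells, averaged 11.16 ± 0.12 in MUTZ-5 and 9.45 ± 0.098 in MHH-CALL4 (3.28-fold, and 1.13 on the log2 scale with extended summaries against 1.72). CD69, an activation antigen, was 3.11-fold higher, and PTPRC, the CD45 phosphatase, 2.71-fold. MS4A1, the CD20 antigen, differed by 0.84 and FCER2, the CD23 antigen, by 1.21 (0.76 with extended summaries). Lower in MUTZ-5 were CD38, an ectoenzyme of precursor and plasma cells, and CD44, the hyaluronan receptor. CD38 read 10.11, 9.99 and 10.50 in MUTZ-5 and 12.42, 12.27 and 12.36 in MHH-CALL4. CD44 read 7.74, 7.64 and 7.82 and 9.74, 9.97 and 9.76. Both were more than 4-fold lower in MUTZ-5 (4.45-fold and 4.25-fold), and no arrays overlapped.

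Some genes that present antigen were higher in MUTZ-5, and ERAP2 was lower. Of 9 measured genes of MHC class II and its regulators 6 were called higher, 0 lower and 3 neither (66.7% called, against 23.4% of all genes). The 3 not called were the regulators CIITA, RFX5 and RFXAP. At an unadjusted p under 0.05, limma put the same numbers higher (6) and lower (0). HLA-DMB, which loads peptides onto class II molecules, averaged 11.47 ± 0.079 against 10.08 ± 0.093 (2.62-fold, adjusted p = 3.2e-08). HLA-DOA, its regulator, was 1.87-fold higher, and HLA-DPB1, HLA-DRA and CD74, the invariant chain, between 1.29-fold and 1.49-fold. Of 11 class I and processing genes 5 were called higher, 1 lower (2 without MUTZ-5 array 3) and 5 neither (54.5% called). TAP1, the peptide pump, was 2.39-fold higher and HLA-F 2.12-fold, while ERAP2, a peptide trimming enzyme, was 2.39-fold lower. HLA genes are near copies of each other and differ between people, so their probes may read more than 1 gene or miss an allele.

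A few myeloid genes stood higher in MHH-CALL4. Of 25 myeloid markers measured 5 were called lower in MUTZ-5, 1 higher and 19 neither. The share called, 24%, was close to the 23.4% of all genes. At least 2-fold differences made up 16% of the list (4 lower, 0 higher), against 3.99% of all genes. Among genes averaging at least the median level 1 was called lower. MPO, the peroxidase of granulocyte granules, read 8.21, 8.19 and 8.17 in MUTZ-5 and 10.46, 10.56 and 10.51 in MHH-CALL4. ANPEP, the CD13 antigen, read 7.50, 7.55 and 7.27 and 9.83, 9.89 and 9.85. CTSG, a granule protease, read 7.03, 6.91 and 6.66 and 8.27, 8.48 and 8.64. The 3 genes were apart in every array, with MHH-CALL4 the higher by 3.03-fold to 5.34-fold, and CEBPA, a myeloid transcription factor, was 1.93-fold higher there too. LYZ, which encodes lysozyme, was 2.08-fold lower in MUTZ-5 and low in both lines. The granule genes ELANE, PRTN3 and AZU1 and the monocyte genes CD14 and CSF1R were not called. The 1 marker called higher was CST3, and it was not called with extended summaries, while 2 were called higher without MUTZ-5 array 3 or MHH-CALL4 array 3. The mean level over the whole myeloid list ran from 7.40 to 7.56 on the MUTZ-5 arrays and from 7.75 to 7.85 on the MHH-CALL4 arrays. Whether these transcripts come from the leukemia cells or from other cells was not tested. MPO also lies in a run of 6 chromosomal neighbours that were lower in MUTZ-5, whose part was not tested either.

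Of 22 T and NK cell markers 3 were called higher, 2 lower and 17 neither (22.7% called, close to the 23.4% of all genes), the number higher was 1 with extended summaries and without MUTZ-5 array 1 or MHH-CALL4 array 2 or 3, and the list's mean level was 6.97 to 7.17 in MUTZ-5 and 7.03 to 7.06 in MHH-CALL4. Of 14 erythroid and megakaryocyte markers limma called 0 at an adjusted p under 0.05 and 1 at an unadjusted p under 0.05. Without MUTZ-5 array 3, 2 of them were called higher, and without MUTZ-5 array 1, 1 was called lower. The mean level of that list was 7.23 to 7.56 in MUTZ-5 and 7.38 on each MHH-CALL4 array. Of 18 stromal and epithelial markers 16 were not called (11.1% called). Without MUTZ-5 array 3, 2 were called higher and 2 lower. The exceptions were SPARC, 1.95-fold higher in MUTZ-5, and VIM, the intermediate filament vimentin, which blood cells also express. VIM read 9.34, 9.24 and 9.50 in MUTZ-5 and 12.39, 12.64 and 12.55 in MHH-CALL4, 8.97-fold lower in MUTZ-5 without overlap. Of 14 plasma cell markers 4 were called each way (57.1% called), PRDM1, the plasma cell regulator, 2.04-fold higher in MUTZ-5 and XBP1 1.67-fold lower. Without MUTZ-5 array 1 or 3 or MHH-CALL4 array 1 or 3, and in a fit of the 6 DMSO arrays alone, 2 plasma cell markers were called higher.

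The JAK-STAT machinery itself differed about as often as genes in general. Of 13 components measured 1 was called higher in MUTZ-5 and 2 lower (23.1%, close to the 23.4% of all genes). The number higher was 2 without MUTZ-5 array 2, after cyclic loess, with a mean-variance trend and with low genes left out. JAK2, the kinase mutated in both lines by background knowledge, averaged 9.82 ± 0.12 in MUTZ-5 and 9.62 ± 0.12 in MHH-CALL4 (adjusted p = 0.2). IL7R averaged 11.40 and 11.62 and was not called either (adjusted p = 0.2). JAK1 was 1.46-fold and JAK3 1.35-fold lower in MUTZ-5, and PTPN6, a phosphatase that switches off cytokine receptors, 1.5-fold higher. Among 20 cytokine receptors 6 were called lower and 1 higher (35.0% called). The number higher was 0 without MUTZ-5 array 1 or 3 or MHH-CALL4 array 1, 2 or 3. IL4R, the interleukin-4 receptor, read 8.82, 8.67 and 9.0 in MUTZ-5 and 10.17, 10.37 and 10.31 in MHH-CALL4. IL1RAP, a coreceptor for interleukin-1, averaged 6.65 ± 0.13 and 7.95 ± 0.12 (log2 difference -1.30, -0.78 with extended summaries). Both receptors stood lower in every MUTZ-5 array.

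Targets and feedback genes of STAT5 were split, with 5 of 19 higher in MUTZ-5 and 6 lower (57.9% called). CCND2, a cyclin that STAT5 induces in lymphocytes, read 13.31, 13.24 and 13.39 in MUTZ-5 and 11.91, 12.02 and 11.95 in MHH-CALL4, a 2.55-fold difference without overlap. CISH and SOCS2, feedback inhibitors of cytokine signalling, were 1.37-fold and 1.29-fold lower, and SOCS6 1.69-fold higher. PIM1 and PIM2, survival kinases, stood apart in opposite directions, with log2 differences of -0.47 and 0.61. MYC averaged 12.65 and 12.51 and was not called (adjusted p = 0.2). Of 18 measured genes that classify Ph-like leukemia, the subtype to which CRLF2 rearrangement belongs, 6 were called lower and 3 higher. The share called was 50%, against 23.4% of all genes. LDB3, a muscle Z-disc protein, averaged 8.10 ± 0.13 in MUTZ-5 and 10.26 ± 0.06 in MHH-CALL4. SPATS2L was 2.38-fold lower, CA6, a secreted carbonic anhydrase, 2.23-fold lower, and SLC2A5, the fructose transporter, 2.83-fold higher.

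Genes of the RAS and ERK pathway were called for 17 of 28 measured members, 11 lower and 6 higher (60.7%). EGR1, an early gene that ERK induces, read 11.19, 11.18 and 11.53 in MUTZ-5 and 9.43, 9.25 and 9.31 in MHH-CALL4. SPRY2, a feedback inhibitor of the pathway, read 9.56, 9.52 and 9.65 and 10.92, 11.07 and 10.99. EGR1 was 3.92-fold higher and SPRY2 2.67-fold lower in MUTZ-5, both without overlap. DUSP6, the phosphatase that acts on ERK, was 1.83-fold lower, SPRED1, another inhibitor, differed by -0.68, RASSF2 was 2.05-fold lower, and RASGRP1, which loads RAS with GTP after receptor signals, 2.71-fold lower. Among 41 receptor tyrosine kinases 8 were called higher, 2 lower and 31 neither (24.4% called, close to the 23.4% of all genes), and 5 were called higher without MUTZ-5 array 1 or 2 or MHH-CALL4 array 3. The lower pair of this list, EPHB4 and FGFR1, came down to 1 without MUTZ-5 array 1 or 2 or MHH-CALL4 array 1 or 2. Among genes averaging at least the median level 3 were called higher. EPHA7, a receptor tyrosine kinase counted with the neural genes instead, was called lower by limma (-0.39, adjusted p = 0.0049) and was low in both lines. ERBB3 was the largest, at 8.54, 8.45 and 8.78 in MUTZ-5 and 6.54, 6.61 and 6.59 in MHH-CALL4, 4.04-fold higher. INPP4B, a lipid phosphatase that restrains PI3K signalling, averaged 5.63 ± 0.019 and 7.65 ± 0.079 (-2.02, and -1.25 with extended summaries).

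**Figure D2:**
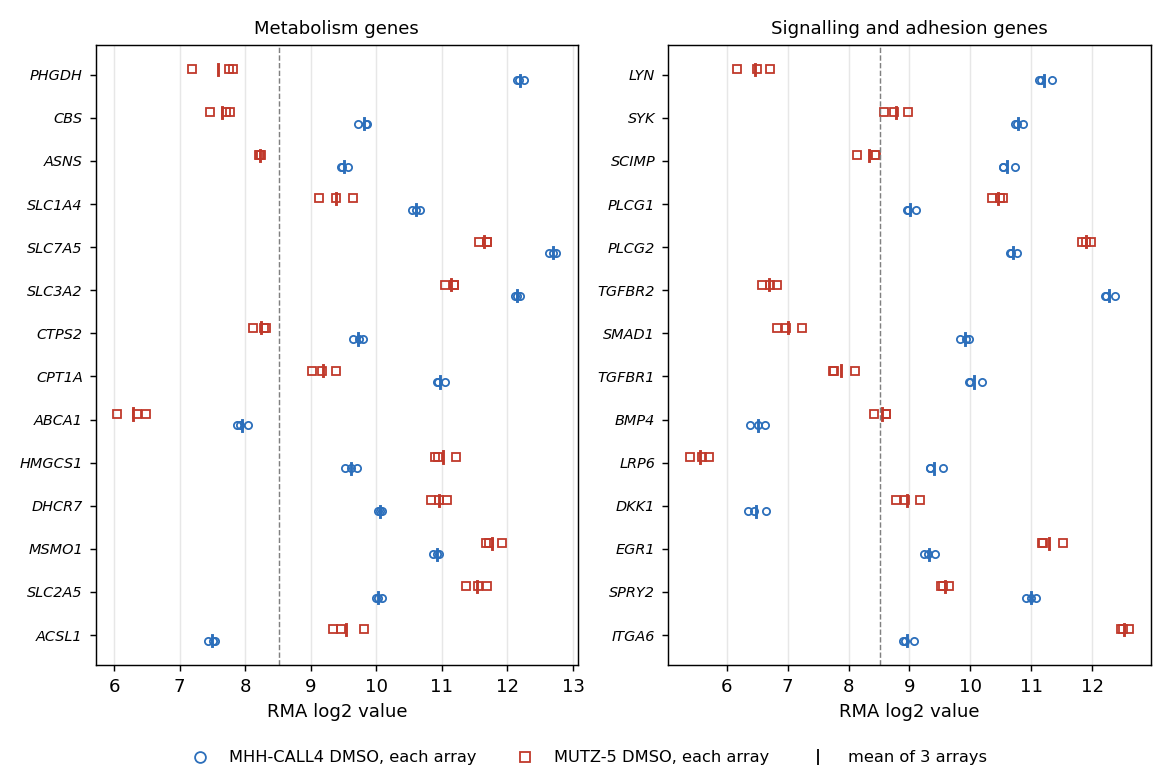
RMA log2 values (horizontal axis) of metabolism genes (left) and of signalling and adhesion genes (right) on each MUTZ-5 DMSO array (red squares) and each MHH-CALL4 DMSO array (blue circles), with bars at the line means and a dashed line at the median gene. No gene shown has overlapping lines, and PHGDH, LYN, TGFBR2 and LRP6 have the widest gaps.

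The receptors of TGF-beta were far apart. TGFBR2, the receptor that binds the ligand, read 6.57, 6.82 and 6.71 in MUTZ-5 and 12.38, 12.22 and 12.23 in MHH-CALL4. TGFBR1, the kinase it recruits, read 7.75, 7.77 and 8.11 and 9.98, 10.19 and 9.99. SMAD1, a transducer of BMP signals, read 7.23, 6.97 and 6.83 and 9.98, 9.93 and 9.83. In each of the 3 every MUTZ-5 value was below the median gene and every MHH-CALL4 value above it: TGFBR2 was 47.6-fold lower (log2 difference -5.57, SE 0.085, adjusted p = 4.8e-14), TGFBR1 4.53-fold and SMAD1 7.47-fold (-2.90 on the log2 scale, -1.85 with extended summaries). ACVR1B, an activin receptor, was 2.37-fold lower, SMAD3, the transducer of TGF-beta, differed by -0.91 and the ligand BMP2 by -1.13. BMP4, also a ligand, was higher in MUTZ-5, at 8.56 ± 0.11 against 6.51 ± 0.12 (2.04, and 0.80 with extended summaries). Over the whole list of 37 measured genes 10 were called lower, 7 higher and 20 neither (45.9% called, against 23.4% of all genes). Among genes averaging at least the median level 3 were called higher.

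Some WNT receptors were far lower in MUTZ-5, although most of the list was not called. Of 38 measured pathway genes 10 were called lower in MUTZ-5, 4 higher and 24 neither (36.8% called, against 23.4% of all genes), with a median of -0.012, and 23.7% differed at least 2-fold against 3.99% of all genes. Among genes averaging at least the median level 5 were called lower and 2 higher. LGR5, the R-spondin receptor of stem cells, read 5.83, 5.55 and 5.58 in MUTZ-5 and 11.30, 11.60 and 11.42 in MHH-CALL4. LRP6, a coreceptor of WNT ligands, read 5.71, 5.60 and 5.39 and 9.34, 9.55 and 9.33. FZD6, a WNT receptor, read 5.93, 6.10 and 6.0 and 8.98, 8.76 and 8.72. All 3 were below the lower quartile of genes in MUTZ-5 and well above it in MHH-CALL4, 55.1-fold, 14.3-fold and 7.0-fold apart. TLE1, a corepressor, was 5.31-fold lower, and FZD3 (-1.08), LGR6 (-1.17, -0.54 with extended summaries) and NKD2 (-1.15, -0.73) were also lower on the log2 scale. The secreted inhibitor DKK1 was 5.57-fold higher in MUTZ-5 (2.48, 1.45 with extended summaries), and TCF7L2, a partner of beta-catenin, was 0.74 higher.

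Adhesion molecules held a large share of 2-fold differences, 34.4% of 32 measured against 3.99% of all genes. In MUTZ-5 10 were called higher and 9 lower (59.4% called, against 23.4% of all genes). Among genes averaging at least the median level 5 were called higher. ITGA6, the laminin receptor chain that takes leukemia cells along vessels into the central nervous system, read 12.48, 12.50 and 12.60 in MUTZ-5 and 9.07, 8.93 and 8.89 in MHH-CALL4. ITGA8 read 9.04, 8.93 and 9.27 and 5.87, 5.99 and 5.97. CD226, an adhesion receptor best known from T and NK cells, read 9.39, 9.16 and 9.60 and 6.27, 6.55 and 6.52. These 3 were 11.8-fold, 8.78-fold and 7.67-fold higher in MUTZ-5. PECAM1 (1.92), CD151 (1.38, 0.82 with extended summaries) and ICAM2 (1.23) were higher on the log2 scale too. ITGAL, a chain of the leukocyte integrin LFA-1, was 4.19-fold lower in MUTZ-5, and its ligand ICAM1 2.10-fold lower. CCR7, a receptor that guides lymphocytes to lymph nodes, was 2.29-fold higher.

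Among inflammatory genes IL1B, the cytokine interleukin-1 beta, stood out, at 7.22, 7.16 and 7.32 in MUTZ-5 and 10.03, 9.91 and 9.95 in MHH-CALL4. Every MHH-CALL4 value was above the median gene and every MUTZ-5 value below it, a 6.64-fold difference. The list of NF-kappaB subunits and targets was otherwise split, 6 of 28 higher and 7 lower (46.4% called, against 23.4% of all genes). CCL2 was 2.18-fold and CD40 2.03-fold higher in MUTZ-5. Interferon-stimulated genes were split as well, 9 of 32 higher and 6 lower (46.9% called). OAS1, an antiviral RNA sensor, was 2.39-fold higher and BST2, or tetherin, 2.06-fold higher, whereas IFIT3 was 2.59-fold lower and MX1 differed by -0.95 (-0.46 with extended summaries). G protein regulators included RGS1, which dampens chemokine receptors, at 6.96, 7.13 and 8.36 in MUTZ-5 and 4.94, 4.73 and 4.99 in MHH-CALL4, with the third MUTZ-5 array above the other 2, and GNA15, a G protein subunit of blood cells, 4.68-fold lower.

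Of 26 targets of p53, 9 were called higher in MUTZ-5, 1 lower and 16 neither (38.5% called, against 23.4% of all genes). The number lower was 3 without MUTZ-5 array 3, in the fit of the 6 DMSO arrays alone, after cyclic loess and with low genes left out, and 0 without MHH-CALL4 array 2. EDA2R, a TNF receptor that p53 induces, read 9.99, 9.78 and 10.21 in MUTZ-5 and 7.98, 8.03 and 7.98 in MHH-CALL4, 4.0-fold higher without overlap. TIGAR, SESN1 and TP53INP1 were 1.63-fold, 1.72-fold and 1.64-fold higher, while CDKN1A, the classical target, was not called (10.17 and 10.29, adjusted p = 0.32). Of 18 regulators of the G1 phase 5 were called higher, 3 lower and 10 neither (44.4% called), with 8 higher after cyclic loess. CCND1 was 2.80-fold higher in MUTZ-5 (1.49, 0.99 with extended summaries), CCND2 higher as above, and the E type cyclins CCNE1 and CCNE2 1.88-fold and 2.20-fold lower. RB1, their brake, was 1.72-fold lower. CDKN2A averaged 7.12 ± 0.18 and 7.29 ± 0.22, below the median gene in both lines, and was not called (adjusted p = 0.35). Of 30 replication and mitosis genes 8 were called higher, led by MCM6 (1.52-fold) and GINS2 (1.52-fold), and 3 lower (36.7% called). The largest of the 11 differences stayed under 2-fold. The number lower was 0 without MUTZ-5 array 1 or 2 or MHH-CALL4 array 2 or 3, and 6 without MUTZ-5 array 3 or at an unadjusted p under 0.05.

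A wide gap lay at the entry to serine synthesis. PHGDH, the enzyme that commits a glycolytic intermediate to serine, read 7.76, 7.81 and 7.18 in MUTZ-5 and 12.26, 12.18 and 12.15 in MHH-CALL4. All MUTZ-5 values were below the median gene and all MHH-CALL4 values among the highest of the array, a 24.5-fold difference (log2 difference -4.61, SE 0.14, adjusted p = 1.9e-11). PSAT1, the next enzyme, averaged 10.37 ± 0.11 and 10.10 ± 0.095 and was not called (adjusted p = 0.072). SFXN1, the carrier that brings serine into mitochondria, went the other way, at 10.68, 10.49 and 10.87 in MUTZ-5 and 6.49, 6.23 and 6.57 in MHH-CALL4, 19.0-fold higher in MUTZ-5. CBS, which turns serine and homocysteine into cystathionine, was 4.47-fold lower (-2.16, -0.93 with extended summaries), and CTH, which splits cystathionine, 1.55-fold higher. Of 23 serine and one-carbon genes measured 4 were called each way and 15 neither (34.8% called, against 23.4% of all genes). Among genes averaging at least the median level 2 were called lower.

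Amino acid transport and synthesis genes were called lower more often than higher, 11 against 4 of 29 (51.7% called), although the list's median was 0.0038. The lower genes included both chains of the large neutral amino acid transporter. SLC7A5 read 11.68, 11.57 and 11.69 in MUTZ-5 and 12.63, 12.74 and 12.70 in MHH-CALL4. SLC3A2 read 11.19, 11.05 and 11.19 and 12.11, 12.19 and 12.14. Each was lower by close to 2-fold (2.06 and 2.0) without overlap. ASNS, which makes asparagine and whose level matters for asparaginase treatment, read 8.21, 8.22 and 8.24 in MUTZ-5 and 9.46, 9.57 and 9.47 in MHH-CALL4, 2.42-fold lower (-1.28, -0.63 with extended summaries). SLC1A4, a carrier of serine and alanine, was 2.33-fold lower. Of 36 nucleotide genes 7 were called higher and 9 lower (44.4% called, against 23.4% of all genes). The lower genes were led by CTPS2, a CTP synthase, 2.80-fold, and DPYD, which degrades pyrimidines, 2.27-fold.

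Cholesterol synthesis genes were higher in MUTZ-5 as a group. Of 22 measured 14 were called higher, 3 lower and 5 neither (77.3% called, against 23.4% of all genes). The median log2 difference was 0.42, against 0.028 for all genes. HMGCS1, which makes the HMG-CoA of the pathway, read 10.89, 10.93 and 11.21 in MUTZ-5 and 9.70, 9.61 and 9.52 in MHH-CALL4. DHCR7, the last enzyme, read 10.96, 10.83 and 11.07 and 10.03, 10.08 and 10.05. MSMO1, a sterol oxidase, read 11.68, 11.72 and 11.91 and 10.92, 10.96 and 10.87. No lines overlapped, but the differences were modest: 2.64-fold for HMGCS1, the one gene of the list more than 2-fold higher, 1.87-fold for DHCR7, 1.80-fold for MSMO1 and 1.6-fold for TM7SF2 (0.68, 0.35 with extended summaries). SQLE (0.58), LSS (0.44), the sterol sensor INSIG1 (0.63) and the sterol carrier STARD4 (0.62) were also higher on the log2 scale. The 3 lower genes were ABCA1, which exports cholesterol, at 6.29 ± 0.22 against 7.94 ± 0.085, MYLIP, which degrades the LDL receptor (-0.59), and NPC1, a lysosomal carrier (-0.29), whose call was lost in 4 alternatives, among them those without MUTZ-5 array 1 or 2 or MHH-CALL4 array 2.

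Promoters of these genes are shown because so many members stood higher together. The 250 bases before the outermost RefSeq start of the gene are given (build GRCh38.p14, 5′ to 3′ on the gene's strand), with capitals at CCAAT or its reverse complement ATTGG, the box that NF-Y binds beside sterol elements.
HMGCS1, chr5:43313413-43313662, minus strand: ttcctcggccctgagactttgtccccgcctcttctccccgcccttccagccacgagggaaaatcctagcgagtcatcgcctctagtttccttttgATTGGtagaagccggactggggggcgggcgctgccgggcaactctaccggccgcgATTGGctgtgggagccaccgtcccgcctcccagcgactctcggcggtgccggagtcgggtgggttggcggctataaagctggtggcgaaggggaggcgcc
MSMO1, chr4:165327419-165327668, plus strand: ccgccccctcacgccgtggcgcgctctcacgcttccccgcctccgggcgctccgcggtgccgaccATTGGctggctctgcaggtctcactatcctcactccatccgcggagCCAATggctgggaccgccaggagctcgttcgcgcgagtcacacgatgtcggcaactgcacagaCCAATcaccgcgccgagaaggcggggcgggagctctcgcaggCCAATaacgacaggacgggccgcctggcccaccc
TM7SF2, chr11:65111622-65111871, plus strand: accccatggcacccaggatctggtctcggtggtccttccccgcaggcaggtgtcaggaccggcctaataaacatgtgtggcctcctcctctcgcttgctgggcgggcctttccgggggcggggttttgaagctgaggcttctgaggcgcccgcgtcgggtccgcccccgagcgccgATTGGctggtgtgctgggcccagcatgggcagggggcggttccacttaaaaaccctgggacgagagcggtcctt
INSIG1, chr7:155297628-155297877, plus strand: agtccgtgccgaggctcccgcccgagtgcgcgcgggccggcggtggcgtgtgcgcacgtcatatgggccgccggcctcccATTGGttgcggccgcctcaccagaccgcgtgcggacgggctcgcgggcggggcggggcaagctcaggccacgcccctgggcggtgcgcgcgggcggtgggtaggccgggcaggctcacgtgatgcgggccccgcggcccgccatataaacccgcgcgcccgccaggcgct
The 4 promoters hold 2, 4, 1 and 1 matches. Only promoters with a match were chosen for printing, so a match in each was fixed in advance. DHCR7, with a larger difference than MSMO1, is not among them. Counting any start of a gene, 16 of the 20 measured cholesterol genes that have a promoter in the table held a match. A match was held by 41.1% of all 11377 tested genes with a promoter in RefSeq's table, and by 32% of all 35116 promoters. These are letter matches in a fixed window, and binding was not measured. The sequences come from the reference genome and from neither line, and their part in the difference between the lines was not tested.

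Lipid genes beyond cholesterol differed in both directions. ACSL1, which activates fatty acids, read 9.46, 9.34 and 9.81 in MUTZ-5 and 7.54, 7.43 and 7.50 in MHH-CALL4. CPT1A, which passes them into mitochondria for oxidation, read 9.17, 9.02 and 9.38 and 10.92, 11.04 and 10.93. ACSL1 was 4.14-fold higher and CPT1A 3.42-fold lower in MUTZ-5, with no overlap. PLIN2, a lipid droplet coat protein, was 2.18-fold lower, and ALOX5AP, which helps make leukotrienes, higher by 1.38 (0.77 with extended summaries). ACAA2, a thiolase of mitochondrial beta oxidation, was among the widest gaps of all genes, at 4.10, 4.52 and 4.96 in MUTZ-5 and 9.78, 10.39 and 9.97 in MHH-CALL4 (45.9-fold lower, log2 difference -5.52, -3.06 with extended summaries).

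In central carbon metabolism few differences were wide. Of 27 glycolysis genes 5 were called higher and 4 lower (33.3%), and SLC2A5 was the 1 member past 2-fold. PFKFB3, which drives glycolytic flux, was 1.81-fold lower in MUTZ-5, LDHB 1.63-fold lower and HK2 1.51-fold higher. Of 25 respiratory chain genes 20 were not called (20% called, against 23.4% of all genes), and the 5 called differed by less than 2-fold. CYP26A1, which clears retinoic acid, read 8.76, 8.55 and 8.86 in MUTZ-5 and 6.2, 6.36 and 6.21 in MHH-CALL4, 5.53-fold higher, and ALDH3A2, an aldehyde dehydrogenase, was 2.63-fold higher. FECH, the last enzyme of haem synthesis, was 2.69-fold higher. Among glycan enzymes FUT8, which adds core fucose, was 2.34-fold higher and GCNT1, which branches O-glycans, 2.74-fold lower.

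**Figure D3:**
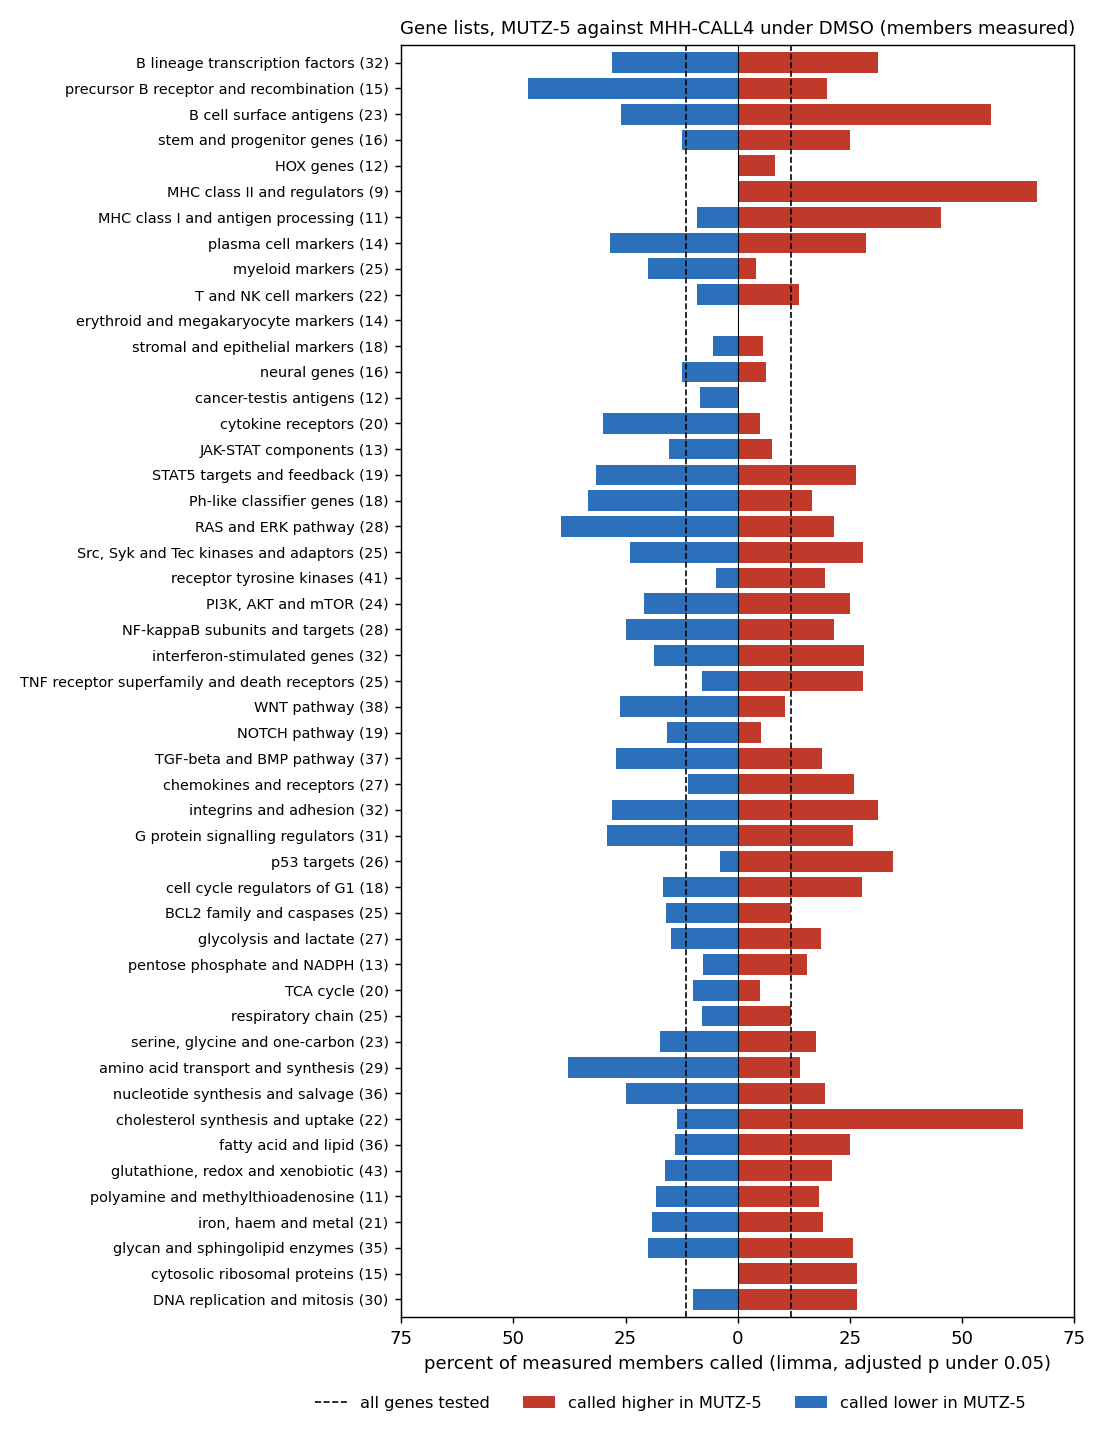
Percent of the measured members of each gene list called higher (red, to the right) or lower (blue, to the left) in MUTZ-5 by limma at an adjusted p under 0.05, with the number measured in brackets and dashed lines at 11.5% lower and 11.9% higher for all genes. Bars reach farthest to the right for MHC class II and cholesterol genes and farthest to the left for the precursor B receptor list.

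The 30 widest gaps, 15 each way, held genes of very different roles. The widest of all was GTSF1, a factor of germ cell small RNA defence, at 6.01, 5.70 and 5.37 in MUTZ-5 and 12.60, 12.66 and 12.58 in MHH-CALL4 (121-fold, log2 difference -6.92, SE 0.12, adjusted p = 9.4e-14, -4.61 with extended summaries). KDM6A, a histone H3 lysine demethylase on the X chromosome, read 5.10, 5.13 and 4.80 and 9.51, 9.70 and 9.50. KLHL9, a ubiquitin ligase adaptor whose gene lies near CDKN2A, read 6.64, 5.83 and 6.06 and 10.90, 11.14 and 11.04. All 3 were below the lower quartile of genes in every MUTZ-5 array. Also lower were the solute carrier SLC35F2 (-5.21, -2.31 with extended summaries), the potassium channel KCNQ5 (-4.69), the complement shield CD55 (-4.04, -2.24), the formin DIAPH2 (-4.02), the fatty alcohol enzyme FAR2 (-3.99, -2.57) and the BMP-binding membrane protein CRIM1 (-3.98).

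The widest gaps in favour of MUTZ-5 began with ALKAL2, a ligand of the receptor kinases ALK and LTK. ALKAL2 read 11.42, 11.48 and 11.48 in MUTZ-5 and 5.74, 5.26 and 4.95 in MHH-CALL4, 70.7-fold higher (log2 difference 6.14, 2.11 with extended summaries). Its receptors were not called: ALK averaged 7.25 and 7.05, LTK 7.50 and 7.57. FYB1, an adaptor of T cells and platelets, read 12.04, 12.13 and 12.16 and 6.04, 6.06 and 6.25. SYCP2, a protein of meiotic chromosomes, read 10.57, 10.79 and 10.88 and 4.81, 4.92 and 4.69. FRY, a microtubule-binding protein, read 11.89, 11.95 and 12.08 and 6.11, 6.32 and 6.17. In each the MUTZ-5 arrays stood high and the MHH-CALL4 arrays below the lower quartile of genes. The prostaglandin receptor PTGDR (5.01), the sodium channel SCN3A (4.88), the sperm protein ZPBP (4.97, 2.79 with extended summaries), the chitinase relative CHI3L2 (4.83, 2.55), the mitochondrial cristae protein APOOL (4.55), the adenylate kinase AK5 (4.31), the noncoding ZNF667-AS1 (4.28, 2.27), the GABA receptor chain GABRG3 (4.21), the receptor accessory protein NETO2 (3.99) and the matrix proteoglycan VCAN (3.97) followed on the log2 scale.

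**Figure D4:**
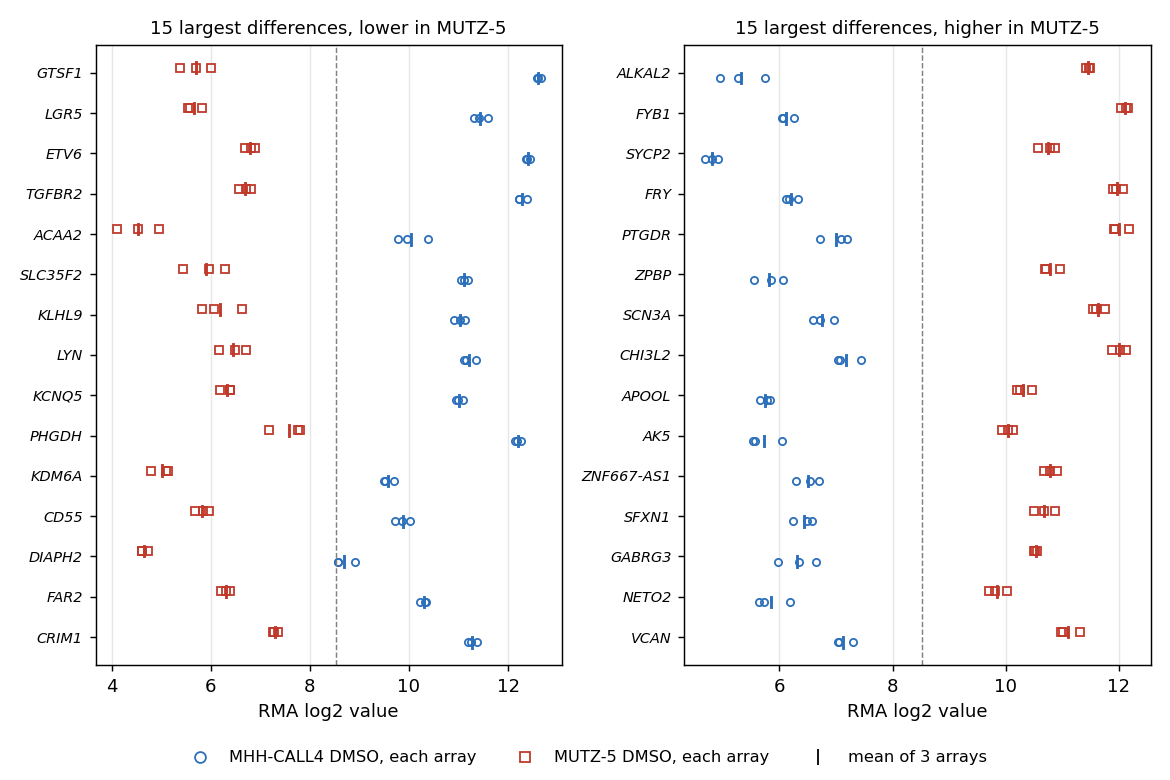
RMA log2 values (horizontal axis) of the 15 genes with the largest difference in each direction, on each MUTZ-5 DMSO array (red squares) and each MHH-CALL4 DMSO array (blue circles), with bars at the line means. GTSF1 and ALKAL2 show the widest gaps, and no gene has overlapping lines.

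Several differences lay next to each other on the chromosomes. The runs described here were picked out after the values had been seen, so they carry no test, and DNA copy number was not measured. Along the 7478 genes that reach the median level in at least 1 line, in the order of RefSeq's GRCh38.p14 annotation, 13 runs of 6 or more neighbours were called in the same direction. The longest was on chromosome 11, where 25 neighbours from FADS2 to OTUB1, SLC3A2 among them, were all lower in MUTZ-5. Their log2 differences ran from -1.0 to -0.46 with a median of -0.62. Of all 48 measured genes in that span 26 were called lower by limma and 0 higher (27 and 0 at an unadjusted p under 0.05), and 23 lay below the median level. The 26 include the 25 of the run, whose calls were fixed by the way it was picked. Of all genes 11.5% were called lower. On chromosome 12 a run of 9 neighbours was higher in MUTZ-5 (median 0.72) and held CCND2, TIGAR and NDUFA9, and a second run of 12 (median 0.73) held PTPN6 and CD69. Under JQ1, 24 of the 25 neighbours on chromosome 11 and all 9 and all 12 of those on chromosome 12 were called in the same direction. Of all genes 19.9% were called under JQ1 in either direction. On chromosome 13 a run of 8 neighbours that includes DLEU1 was lower (median -0.81). The share of neighbouring position in the results given above for SLC3A2, CCND2, TIGAR, PTPN6, CD69 and TGFBR2 was not tested.

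ETV6 has its own neighbourhood on chromosome 12. LRP6, the WNT coreceptor described above, and GPR19, an orphan receptor (-2.96, -0.89 with extended summaries), were lower in MUTZ-5 like ETV6, and DUSP16, a phosphatase of stress kinases, differed by -0.93. CREBL2, in the same stretch, was 0.55 higher. The next genes past it that reach the median level in at least 1 line were CDKN1B, not called (0.24), and APOLD1, called lower (-0.57). BCL2L14, MANSC1 and BORCS5, which also lie near ETV6, were not called. BCL2L14 and MANSC1 were low in both lines (5.73 and 5.57, 4.71 and 4.88), and BORCS5 averaged 7.98 and 8.07. On chromosome 3, TGFBR2 opened a run of 6 neighbours that were lower in MUTZ-5, with a median of -0.74, far smaller than its own difference.

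**Figure D5:**
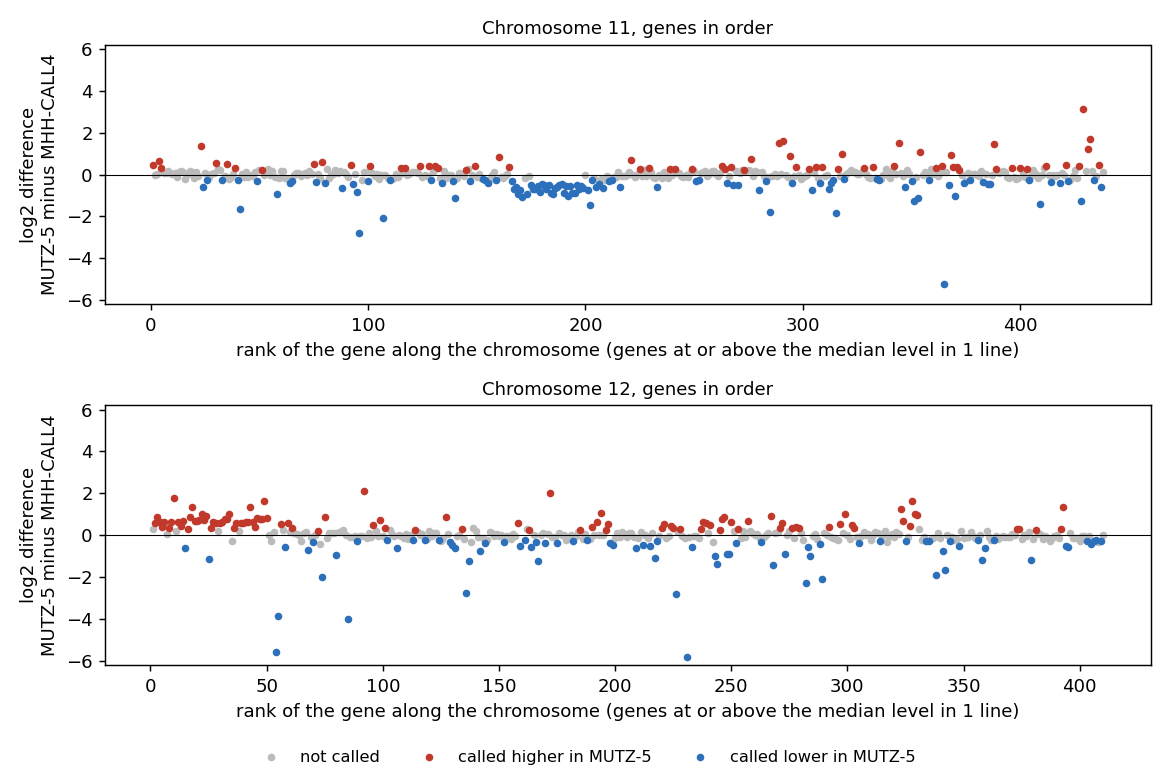
Log2 difference MUTZ-5 minus MHH-CALL4 under DMSO (vertical axis) for genes of chromosome 11 (top) and chromosome 12 (bottom), set by their rank along the chromosome (horizontal axis), for genes whose higher line reaches the median level. Red and blue points were called higher and lower in MUTZ-5 and grey points were not called. A stretch of blue points stands out on chromosome 11 and a stretch of red points at the start of chromosome 12, with ETV6 and LRP6 as a pair of low points just after it, at ranks 54 and 55.

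The 6 JQ1 arrays give the same contrast between the lines in samples whose values do not enter the DMSO difference, although under a drug and with 1 estimate of the spread shared by both contrasts. Of the 568 genes that differed at least 2-fold under DMSO, 544 (95.8%) were called in the same direction under JQ1, where 19.9% of all genes were called. For 553 (97.4%) the JQ1 arrays of the lines did not overlap and had the same order. The share of all genes without overlap was not counted under JQ1, and under DMSO it was 36.2%. At least 2-fold in the same direction again were 386 (68%), 23 (4.05%) were not called and 1 (0.176%) was called in the opposite direction. All 30 genes of the widest gaps were called the same way. ETV6 differed by -4.94 under JQ1, TGFBR2 by -5.47, LYN by -4.63, PHGDH by -3.75 and HMGCS1 by 1.11.

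For some genes, picked after their values had been seen, the JQ1 arrays gave another size of difference. MPO differed by -0.33 there against -2.32 under DMSO, CTSG by -0.28 against -1.6, and IL1B by -0.40 against -2.73. CYP26A1 differed by 0.34 against 2.47 and ITGA8 by 0.71 against 3.13. PECAM1 differed more under JQ1, by 3.15 against 1.92, as did SLC2A5, by 2.55 against 1.5. MYC, not called under DMSO, differed by 0.87 under JQ1 (adjusted p = 4.5e-07). The change of a line difference between DMSO and JQ1 was not tested for any of these genes.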

How the data were processed

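The deposited values are log2 values per transcript cluster on Affymetrix exon arrays, which the authors made with RMA in Affymetrix Expression Console, per the submitters' processing notes. Background correction and normalization were thus done before deposit, and raw scans were not used here. Of 22011 core clusters 14432 had 1 gene symbol, 2408 had several and 5171 were unannotated in the platform annotation. Clusters with several symbols or none were left out, and for 197 genes with more than 1 cluster the cluster with the highest mean was used, giving 14232 genes. Near-identical genes, such as histones, ribosomal proteins, HLA and metallothionein genes, can share probes.

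Differences were fitted with limma 3.58.1 in R 4.3.3 on 12 arrays as 4 group means, with Benjamini-Hochberg adjustment over 14232 genes and the contrast MUTZ-5 minus MHH-CALL4 under DMSO. The script was tested on simulated data. Lists are described by counts and medians, without a test.

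The members and the 49 gene lists were chosen with earlier results of these data known. Genes named are the 15 widest non-overlapping differences each way whose higher line reached the median level, up to 5 called members per list (2 where none was called), the precursor B markers and further genes of identity. Chosen after their values had been seen were BACH2, ZEB2, SPRED1, FZD3, LGR6, NKD2, TCF7L2, BMP2, SMAD3, PECAM1, CD151, ICAM2, SQLE, LSS, INSIG1, STARD4, MYLIP, NPC1, GPR19, DUSP16, CREBL2, CDKN1B, APOLD1, BCL2L14, MANSC1, BORCS5, DLEU1, PSAT1, ALK, LTK, PIM1, PIM2, MS4A1, FCER2, ELANE, PRTN3, AZU1, CD14, CSF1R, CST3, RFX5, RFXAP, EPHB4 and FGFR1. The 14 alternatives tried were the 6 DMSO arrays alone, a replicate block, extended summaries, median centring, cyclic loess, a filter at the median level, a mean-variance trend, the mean of a gene's clusters, and each of the 6 arrays left out.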

Additional observations from a re-analysis of the deposited data

Results flagged for a closer look

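For 4 of the named genes all arrays of one line lay on the opposite side of the other line under JQ1 from where they lay under DMSO. The change of the difference was not tested. GSDME, a pore-forming protein that is cut during cell death, differed by -0.89 under DMSO and 0.29 under JQ1 (adjusted p = 0.03, limma). IKZF1, the Ikaros factor, differed by -0.32 under DMSO (-0.14 with extended summaries) and 0.94 under JQ1 (adjusted p = 8.7e-07), where its arrays read 12.48, 12.56 and 12.48 in MUTZ-5 and 11.66, 11.60 and 11.43 in MHH-CALL4. NPC1, the lysosomal cholesterol carrier, differed by -0.29 under DMSO and 0.14 under JQ1, where it was not called (adjusted p = 0.3). SAT1, which acetylates polyamines for export, differed by 0.29 under DMSO (0.11 with extended summaries) and -0.12 under JQ1, where it was not called (adjusted p = 0.44).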

How the results depend on the processing

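The number of genes called was 3330 and ran from 2453 among genes averaging at least the median level to 3798 after cyclic loess. It was 2934 in the fit of the 6 DMSO arrays alone, 3077 with extended summaries, 3501 after median centring, 3405 with a mean-variance trend and 3320 with the mean of a gene's clusters. With 1 array left out it ran from 2640 (without MUTZ-5 array 1) to 3699 (without MUTZ-5 array 3), with 557 to 576 genes past 2-fold. Extended summaries put 417 genes past 2-fold in place of 568. The filter at the median level tests fewer genes by construction and gave 1061 genes called higher, 285 past 2-fold, 118 of them higher and 167 lower. At least 99.3% of the 568 genes past 2-fold, where present, kept their call and direction in each of the 14 alternatives. The share of called genes that were lower was 49.1%, with 58.2% after median centring, 43.4% without MUTZ-5 array 2 and 55.2% without MUTZ-5 array 3.

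Of 265 named genes called, 241 kept call and direction in each of the 14 alternatives that tested them, 23 lost the call in at least 1, and CD247 reversed to 0.018 with extended summaries (adjusted p = 0.91, limma). These 265 and the 20 below do not cover CST3, EPHB4, FGFR1, ELANE, PRTN3, AZU1, CD14, CSF1R, CIITA, RFX5, RFXAP, CDKN1B and APOLD1, although these are named above. Of 20 named genes not called, HBB and PSAT1 gained a call in at least 1 alternative and 5 changed sign: EBF1 (0.003 after cyclic loess), CD24, CDKN2B, LTK and MANSC1 (0.019 with extended summaries). With 1 array left out CD24 ran from -0.16 to 0.094 (without MHH-CALL4 array 2), CDKN2B from -0.10 to 0.047 and LTK from -0.14 to 0.052 (both without MUTZ-5 array 3), and EBF1 from -0.061 to 0.041 (without MUTZ-5 array 2). The causes were not tested.

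The labels number the samples of each line 1 to 3. Deviations of same-numbered DMSO arrays correlated across the lines at -0.20, -0.092 and -0.26. The JQ1 arrays were not compared in this way, and the labels do not say what a shared number means. With the replicate number as a block 2990 genes were called and 568 differed at least 2-fold. No detection calls or raw signals were used, so it is not known which low values are above background, and 3 arrays per group limit the precision.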
